A study of Mus musculus with 4 samples.

Results

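On mouse chromosome 6, genes outside 4 blocks of shifted expression were followed in G3 Terc-/- embryonic stem cells (ESCs) and wild-type (WT) ESCs. In the blocks, which start at 0, 45, 80 and 120 Mb of the GRCm38 (mm10) assembly, most genes lay on the same side of WT. Outside them remain 3 intervals, 25 to 45 Mb and 95 to 120 Mb between blocks, and 130 to 150 Mb beyond the last block. Genes were taken when the annotated start lay in an interval and the mean raw count over the 4 libraries was at least 10. Mest, Copg2, Pot1a, Rad52 and genes whose symbol begins with Nduf were left out by name. This gave 268 of the 24116 genes in the table, with 92 in the first interval, 100 in the second and 76 in the third. The limits of the intervals were chosen from measured values, namely the medians of this same G3 Terc-/- against WT contrast along the chromosome, so the fold changes and calls given here are a description, nothing is supported with them, and no p-value is attached to a gene.

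Both genotypes were C57BL/6 ESCs, grown on a layer of feeder cells in medium with serum and leukemia inhibitory factor. WT cells came from line N12 and G3 Terc-/- cells from line F35, in which the telomerase RNA gene Terc is deleted, G3 naming the generation of breeding without it (3). The sample names of the WT libraries carry G3 as well, and what it means for WT cells is not given in the sources used here. Each genotype was 1 line with 2 libraries of poly(A) RNA, so genotype and line cannot be told apart. The study counts the 2 libraries of a line as biological replicates. No source used here says whether they came from separate cultures, and part of their spread may be technical.

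Telomerase uses the RNA made from Terc as the template for adding telomere repeats to chromosome ends, and mice bred without it lose telomere sequence with each generation. ESCs self-renew in leukemia inhibitory factor, whereas signalling from FGF receptors through RAS, RAF kinases, MEK and ERK moves them toward differentiation. The 3 intervals hold several genes of that cascade, Braf among them, a number of DNA repair genes (Rad18, Fancd2, Ogg1, Mbd4 and Recql) and Shq1, an assembly factor of the particles that carry H/ACA RNAs, telomerase RNA among them.

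Terc itself (chr3:96414437-96414833) was counted 7 and 2 times in WT and was at 0 in each of the G3 Terc-/- libraries. All of these levels are low, since a count of 0 allows up to 3 counts in a library, and at this depth Terc was too low to be tested. Libraries held between 18047995 and 22520017 counts. The calls of marker genes that follow stand beside 21.7% called higher and 21.8% lower over all genes tested. Of 12 genes of the pluripotent state, 9 were called higher and 3 lower in G3 Terc-/- cells. Their summed levels were 6840 and 6975 CPM (counts scaled to the size of the library) in WT and 7825 and 8190 CPM in G3 Terc-/- libraries. Of 18 genes that mark feeder fibroblasts, 17 could be tested, 8 were called higher and 1 lower, and their summed level was 1758 to 2094 CPM in WT and 2455 to 2880 CPM in G3 Terc-/- libraries. None of the 18 was at 0 in any library, and Vim and Fn1, which ESCs can also express, were among those called higher. Most of the rise in the sum came from these 2 genes. Fn1 had 1138 and 1008 CPM in WT and 1696 and 1506 CPM in G3 Terc-/- libraries. Vim had 166 and 135 CPM against 321 and 277 CPM. Another 8 markers were not called, Col1a1, Sparc and Acta2 among them, and whether feeder RNA rose was not tested. Of 8 trophectoderm genes, 7 could be tested, 1 was called higher and 5 lower, with summed levels of 342 and 331 CPM in WT and 202 and 199.9 CPM in G3 Terc-/- libraries. Of 8 genes of the primitive endoderm, 7 could be tested, 0 were called higher and 3 lower, with 35.6 and 32.7 CPM in WT and 23.4 and 16.9 CPM in G3 Terc-/- libraries. In such bulk RNA, fewer cells of a type and less RNA per cell cannot be told apart.

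The 3 intervals differed from the blocks beside them in the middle of their distributions, which is what the choice of limits used. The median log2 fold change (G3 Terc-/- minus WT) was -0.03 over 92 tested genes in the first interval, 0.07 over 99 in the second and 0.12 over 76 in the third. In the blocks it was -0.88, -0.90, 0.49 and 0.54, in their order along the chromosome, and over the other chromosomes it was 0.01. Individual genes did move in the intervals. By edgeR's quasi-likelihood test with a Benjamini-Hochberg adjusted p under 0.05 over the 14896 genes tested, 24, 27 and 24 genes of the 3 intervals were called higher and 25, 23 and 14 were called lower. Over all genes tested, 21.7% were called higher and 21.8% lower. By the cutoffs of the study, a fold change above 2 with an unadjusted p under 0.05, 3, 4 and 3 genes were called higher and 5, 5 and 1 lower, where 4.73% and 3.13% of all genes tested were. DESeq2 called 12 genes lower in the second interval, and 14 higher and 8 lower in the third. Without WT replicate 2, 14 genes were called lower in the second interval and 7 in the third, and without WT replicate 1 or G3 Terc-/- replicate 1, 8 in the third. Since the intervals were set on this contrast, nothing is read from these counts against those shares.

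**Figure D1:**
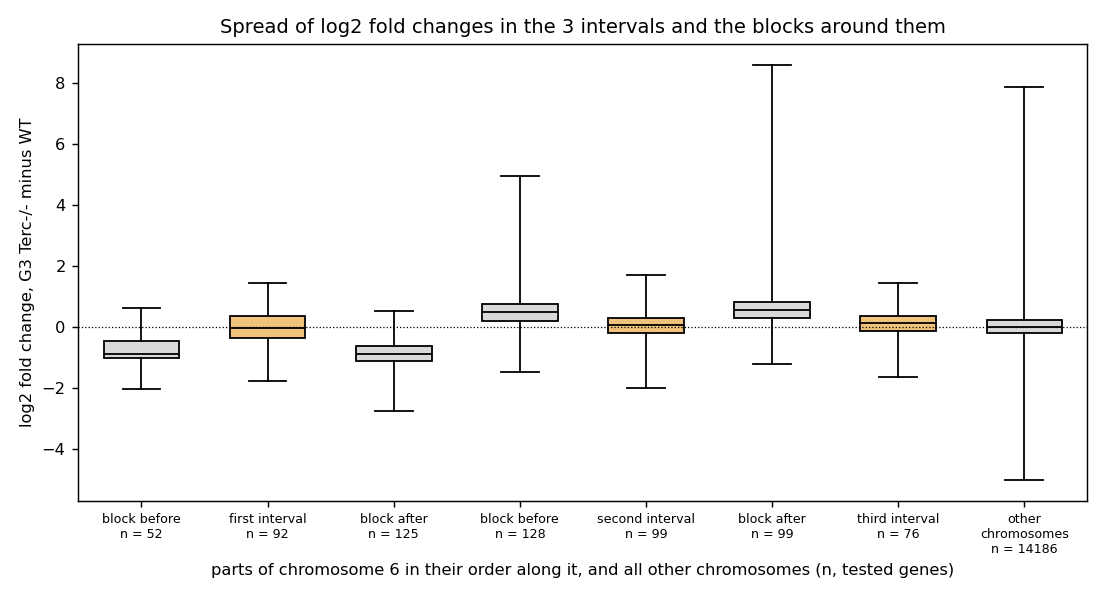
Boxes give the quartiles and whiskers the lowest and highest log2 fold change (G3 Terc-/- minus WT) of the tested genes in the 3 intervals (orange), in the 4 blocks next to them and on the other chromosomes (grey), with n the number of tested genes. The interval boxes lie across 0, with medians of -0.03, 0.07 and 0.12, and the block boxes lie to either side of it.

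The fold changes inside an interval spread more widely in the first and second intervals than in the third. Sizes of 0.5 or more on the log2 scale were found for 33 of 92, 33 of 99 and 17 of 76 genes, or 35.9%, 33.3% and 22.4%, and for 24.1% of all genes tested. The range ran from -1.79 to 1.43 in the first interval, from -2.01 to 1.70 in the second and from -1.65 to 1.44 in the third. Summed over its members, the first interval held 4892 and 4880 CPM in the WT libraries and 5441 and 5382 CPM in the G3 Terc-/- libraries. The second held 5646 and 5748 CPM in WT and 6037 and 6087 CPM in G3 Terc-/-. The third held 4647 and 4726 CPM in WT and 4526 and 4648 CPM in G3 Terc-/-. The genotypes did not overlap in the first and second intervals, both sums being higher in G3 Terc-/- libraries. They overlapped in the third, where 1 G3 Terc-/- library lay above 1 WT library. Single abundant genes weigh heavily in these sums. Mean levels in WT and G3 Terc-/- cells were 821 and 1115 CPM for Mkrn1 in the first interval. For Wnk1 in the second they were 386 and 661 CPM. The median log2 fold changes of these 2 intervals were -0.03 and 0.07.

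**Figure D2:**
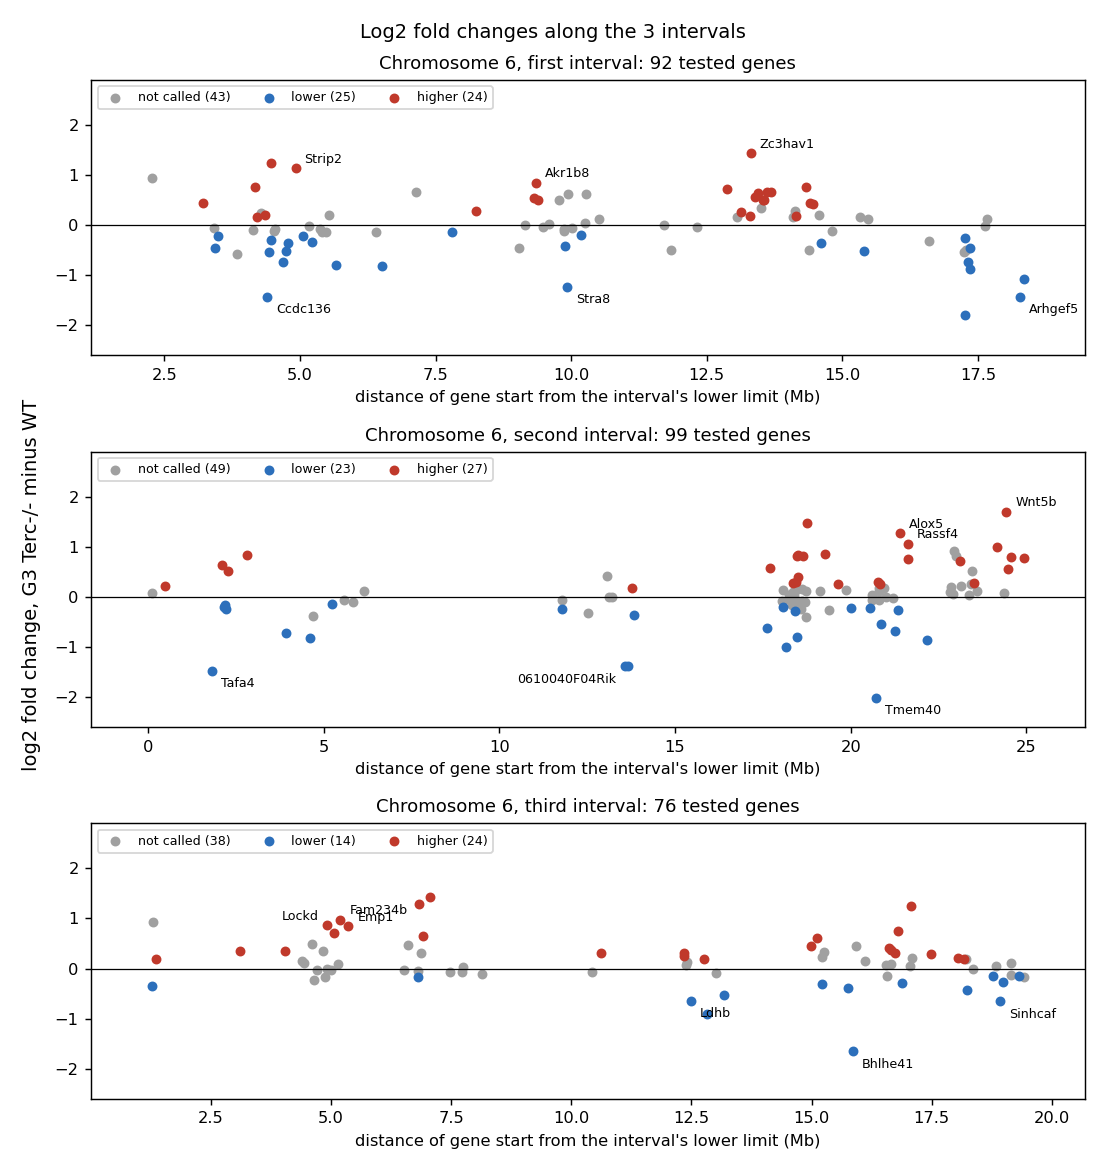
Each point is a tested gene, placed by the distance of its start from the lower limit of its interval in Mb (x axis) and by its log2 fold change, G3 Terc-/- minus WT (y axis), and coloured by its call. Called genes of both directions lie side by side over most of each interval, with a run of higher genes around Zc3hav1 and of lower genes around Arhgef5 in the first interval, and a run above 0 at the upper end of the second.

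From 25 to 45 Mb most genes lay in a mixed stretch, and 2 shorter runs held mostly positive or mostly negative values. The runs were picked with the values in view and carry no test. Their calls stand beside 21.7% called higher and 21.8% lower over all genes tested. From Zfp800 to Mtpn (starts from 28.2 to 35.5 Mb), the median over 51 genes was -0.08, with 19 positive and 32 negative values, 10 called higher and 16 lower. From Trim24 to Dennd2a (37.9 to 39.5 Mb), 18 of 19 genes had a positive value, the median was 0.44, 14 genes were called higher and 0 lower. The 17 genes from Braf (39.6 Mb) up to the limit had 14 negative values, a median of -0.47, 9 genes called lower and 0 higher. Adck2, which lies between Dennd2a and Braf and was named after its value was seen, is in neither run and had a log2 fold change of 0.20 without a call. The far end of this run borders the block that starts at 45 Mb, in which the median was -0.90.

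Zc3hav1 (chr6:38305286-38355352), which encodes the zinc-finger antiviral protein that binds CpG-rich RNA, stood highest in the first interval. Its level was 29.7 and 29.9 CPM in the WT libraries and 81.1 and 79.9 CPM in the G3 Terc-/- libraries, a log2 fold change of 1.43 (standard error, SE, 0.07). Numbers in parentheses beside an SE are log2 fold changes. The genotypes were far apart and each pair of libraries nearly coincided. Its shorter relative beside it, Zc3hav1l, had a log2 fold change of 0.17. Trim24 (chr6:37870811-37968445), a chromatin reader and ubiquitin ligase, had 205 and 216 CPM in WT and 336 and 353 CPM in G3 Terc-/- libraries, a log2 fold change of 0.71 (SE 0.05). Slc37a3, of a family of sugar phosphate transporters, had 48.0 and 45.7 CPM in WT and 77.2 and 80.8 CPM in G3 Terc-/- libraries (0.75, SE 0.07). The groups of both genes were well separated. Hipk2, a kinase that acts on p53, had 17.8 and 15.1 CPM in WT and 27.1 and 24.5 CPM in G3 Terc-/- libraries, again with no overlap, and a log2 fold change of 0.65 (SE 0.10).

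Mkrn1 (chr6:39397804-39423299), a makorin ubiquitin ligase, was the member of this interval with the most reads per kb of annotated exon, at 185 CPM per kb in WT and 251 CPM per kb in G3 Terc-/- cells. It had 17856 and 18290 counts in WT and 25097 and 20021 counts in G3 Terc-/- libraries, a log2 fold change of 0.44 (SE 0.05). It was followed by Calu, a calcium-binding protein of the secretory pathway, at 51.0 and 58.9 CPM per kb, with a log2 fold change of 0.21 (SE 0.05). Calu kept the same direction but was no longer called without WT replicate 2 (0.17). Mtpn, a regulator of actin capping, came next at 42.3 and 46.1 CPM per kb and was not called (0.12, SE 0.05), though it was without G3 Terc-/- replicate 1 (0.16).

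The 3 aldo-keto reductase genes Akr1b3, Akr1b10 and Akr1b8, which reduce aldehydes and sugars, sit next to each other and were all called higher. Akr1b8 (chr6:34354146-34368461) had 9.11 and 9.79 CPM in WT and 17.9 and 15.9 CPM in G3 Terc-/- libraries, a log2 fold change of 0.84 (SE 0.12). Akr1b3 had 3372 and 3524 counts in WT and 5126 and 4124 counts in G3 Terc-/- libraries (0.55, SE 0.05), and Akr1b10 had 223 and 232 against 333 and 260 counts (0.50, SE 0.12). The WT and G3 Terc-/- libraries did not overlap for any of them. These genes are similar in sequence, so the split of reads between them is uncertain.

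A pair of weakly expressed genes were also called higher. Kcp, a secreted modulator of BMP signalling, had 30 and 23 counts in WT and 77 and 39 counts in G3 Terc-/- libraries (1.24, SE 0.29). Strip2, a striatin-interacting protein, had 29 and 39 counts in WT and 94 and 45 counts in G3 Terc-/- libraries (1.14, SE 0.27). In either gene the G3 Terc-/- libraries lay apart from each other, and without G3 Terc-/- replicate 1 the calls were lost, at 0.83 for Kcp and 0.67 for Strip2.

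Among the lower genes of the first interval, Ccdc136 (chr6:29396574-29426995), a coiled-coil protein, had 28.5 and 31.1 CPM in WT and 12.4 and 9.43 CPM in G3 Terc-/- libraries, a log2 fold change of -1.44 (SE 0.10). Stra8 (chr6:34920163-34939344), which retinoic acid induces in germ cells before meiosis, had 9.07 and 9.70 CPM in WT and 4.24 and 3.67 CPM in G3 Terc-/- libraries (-1.24, SE 0.16). In both, each WT library was above each G3 Terc-/- library by more than the gap inside a genotype. Arhgef5 (chr6:43265644-43289320), an exchange factor for small GTPases, had 11.0 and 9.88 CPM in WT and 4.19 and 3.51 CPM in G3 Terc-/- libraries (-1.43, SE 0.16). Again the genotypes did not overlap. Epha1, an ephrin receptor, had 611 and 660 counts in WT and 371 and 266 counts in G3 Terc-/- libraries (-0.88, SE 0.09), and it overlaps the annotated span of Zyx. The lowest value of the interval belonged to Tmem139, at -1.79 (SE 0.51), with 25 and 17 counts in WT and 6 and 5 counts in G3 Terc-/- libraries, and it was picked out after its value was seen.

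Braf (chr6:39603231-39725658), a RAF kinase that passes the RAS signal to MEK, had 1950 and 1942 counts in WT and 1460 and 1315 counts in G3 Terc-/- libraries, or 89.3 and 87.6 against 65.8 and 72.1 CPM. Its libraries did not overlap and its log2 fold change was -0.36 (SE 0.06). Ube2h, a ubiquitin-conjugating enzyme, was also called lower (-0.33, SE 0.08), with 36.4 and 37.6 CPM in WT and 30.2 and 28.4 CPM in G3 Terc-/- libraries. Flnc, an actin crosslinker that fibroblasts also express, had 44.9 and 37.2 CPM in WT and 32.6 and 23.3 CPM in G3 Terc-/- libraries, a log2 fold change of -0.54 (SE 0.10). It lay below WT while the summed feeder markers, whose rise came mostly from Fn1 and Vim, lay above WT. Single feeder markers differed, with Tagln called lower (-0.25), and the part of feeder cells in the level of Flnc was not tested. The log2 fold change of Flnc was -0.81 without G3 Terc-/- replicate 1 and -0.33 without G3 Terc-/- replicate 2. DESeq2 gave -0.55 without a call.

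The bases before the transcription starts of the highest and lowest called genes of the first interval are shown to set an example of each direction side by side, taking the most changed gene in each direction that averaged 50 counts or more and whose RefSeq promoter entry starts within 10 bases of the 5′ end of the gene. They cover 250 bases upstream of the start on GRCm38.p6, written 5′ to 3′ on the strand of the gene, with CpG dinucleotides in capitals. Ccdc136 lies on the plus strand (chr6:29396325-29396574) and has 15 CpG, and Akr1b8 lies on the plus strand (chr6:34353896-34354145) and has 9.
Ccdc136: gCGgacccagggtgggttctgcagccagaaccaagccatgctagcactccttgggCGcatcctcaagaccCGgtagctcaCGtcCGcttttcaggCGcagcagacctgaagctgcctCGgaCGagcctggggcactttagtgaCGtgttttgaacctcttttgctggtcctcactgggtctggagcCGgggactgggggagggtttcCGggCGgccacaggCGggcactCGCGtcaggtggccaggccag
Akr1b8: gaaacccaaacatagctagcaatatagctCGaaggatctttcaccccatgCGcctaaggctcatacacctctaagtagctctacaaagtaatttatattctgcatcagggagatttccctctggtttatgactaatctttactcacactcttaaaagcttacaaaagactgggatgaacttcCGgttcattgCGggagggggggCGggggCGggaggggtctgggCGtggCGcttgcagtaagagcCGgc

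From 95 to 120 Mb, the 81 genes from Kbtbd8 to Cxcl12 (starts from 95.1 to 117.2 Mb) had log2 fold changes around -0.03 (the median), with 20 called higher and 23 lower. The last 18 genes, from Zfp637 to Wnk1 (117.8 to 119.9 Mb), all had positive values, with a median of 0.39, 7 called higher and 0 lower. This end borders the block that starts at 120 Mb, in which the median was 0.54. These stretches, too, were picked with the values in view, and 21.7% of all genes tested were called higher and 21.8% lower. When both limits were moved inward by 2 Mb, the median of the interval was -0.0061, on the other side of 0.

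Of 11 transcription factors and chromatin proteins in the second interval, 3 were called higher and 4 lower. The shares over all genes tested were 21.7% and 21.8%. Bhlhe40 (chr6:108660629-108666925), a repressor tied to the circadian clock, had 58.1 and 58.0 CPM in WT and 22.4 and 22.1 CPM in G3 Terc-/- libraries, a log2 fold change of -1.38 (SE 0.08). Its libraries of either genotype nearly coincided. 0610040F04Rik, a lncRNA whose span overlaps Bhlhe40, had 11.7 and 12.8 CPM in WT and 5.41 and 3.78 CPM in G3 Terc-/- libraries (-1.39, SE 0.15). Whether reads were counted by strand is not given in the sources used here, so part of one may be reads of the other. Foxp1, a forkhead factor that was named after its value was seen, had 1885 and 1866 counts in WT and 1133 and 939 counts in G3 Terc-/- libraries (-0.73, SE 0.06). Mitf, a factor of the melanocyte lineage and of lysosomal genes, went the other way, with 6.87 and 6.09 CPM in WT and 9.74 and 13.4 CPM in G3 Terc-/- libraries (0.83, SE 0.15).

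Tmem40 (chr6:115729131-115762466), a transmembrane protein, had the lowest value of all 3 intervals. It had 230 and 207 counts in WT and 49 and 50 counts in G3 Terc-/- libraries, a log2 fold change of -2.01 (SE 0.18). Tafa4 (chr6:96831206-97060411), a secreted chemokine-like protein, had 119 and 149 counts in WT and 52 and 36 counts in G3 Terc-/- libraries (-1.48, SE 0.21). Neither gene had overlapping groups. Cxcl12, a chemokine that stromal fibroblasts secrete, had 6.82 and 5.68 CPM in WT and 3.16 and 3.78 CPM in G3 Terc-/- libraries (-0.86, SE 0.19). The summed feeder markers, whose rise came mostly from Fn1 and Vim, lay on the other side of WT. For Cxcl12, too, the part of feeder cells was not tested.

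Wnt5b (chr6:119432531-119544824), a WNT ligand, had the highest value of the second interval. It had 43 and 36 counts in WT and 136 and 101 counts in G3 Terc-/- libraries, a log2 fold change of 1.70 (SE 0.21). Fbxl14, an F-box adaptor of ubiquitin ligases, lies inside its annotated span and had 1138 and 1171 counts in WT and 1754 and 1382 counts in G3 Terc-/- libraries (0.56, SE 0.07). The genotypes were apart for both. Whether reads of Fbxl14 were counted for Wnt5b was not tested.

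Alox5 (chr6:116410071-116461178), the lipoxygenase that starts leukotriene synthesis, had 49 and 40 counts in WT and 122 and 77 counts in G3 Terc-/- libraries (1.27, SE 0.22). Rassf4 (chr6:116633008-116673836), a RAS association domain protein, had 57 and 75 counts in WT and 134 and 119 counts in G3 Terc-/- libraries (1.06, SE 0.19). For both, every G3 Terc-/- library lay above every WT library. Dcp1b, a cofactor of mRNA decapping, had 5.40 and 5.86 CPM in WT and 11.2 and 11.3 CPM in G3 Terc-/- libraries (1.00, SE 0.14). Its replicates lay close together and the genotypes apart. Wnk1 (chr6:119923969-120038695), a kinase that regulates ion transport, is the last member below 120 Mb and had 385 and 387 CPM in WT and 661 and 661 CPM in G3 Terc-/- libraries (0.78, SE 0.05).

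Other members of the second interval with a role in the actin cytoskeleton or in membrane traffic moved less. Srgap3, a GTPase-activating protein for RAC, had 11.4 and 11.0 CPM in WT and 16.5 and 16.9 CPM in G3 Terc-/- libraries (0.58, SE 0.11). Emc3, a subunit of the complex that inserts proteins in the endoplasmic reticulum membrane, had 34.1 and 31.7 CPM in WT and 40.4 and 46.6 CPM in G3 Terc-/- libraries (0.40, SE 0.08). Both were called higher with no overlap of the groups. Edem1, which passes misfolded glycoproteins to degradation, was called lower, with 61.7 and 62.6 CPM in WT and 47.4 and 48.9 CPM in G3 Terc-/- libraries (-0.37, SE 0.07). Eif4e3, a cap-binding protein, had 53 and 100 counts in WT and 40 and 39 counts in G3 Terc-/- libraries (-0.82, SE 0.26). The higher WT library set this value, which was -0.31 without WT replicate 2 and then not called.

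The 3 most abundant members per kb in the second interval were not called. Rpl32, a ribosomal protein, stood at 689 CPM per kb in WT and 743 CPM per kb in G3 Terc-/- cells (log2 fold change 0.11, SE 0.05). Hnrnpf, a splicing regulator, followed at 235 and 245 CPM per kb (0.06, SE 0.05). Brk1, a subunit of the WAVE complex that drives actin branching, came next at 53.6 and 60.0 CPM per kb (0.16, SE 0.07). Both Rpl32 (0.11) and Brk1 (0.16) were called higher when scaling factors were computed without chromosome 6. So they were without G3 Terc-/- replicate 1 (0.11 and 0.22), and Rpl32 without G3 Terc-/- replicate 2 (0.12). Rpl32 holds Snora7a in its span and has pseudogene copies, so its level is uncertain.

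Upstream bases of the lowest and, by the same rule as in the first interval, highest gene of the second interval are shown as examples of starts with few CpG. Tmem40 lies on the minus strand (chr6:115762467-115762716) and has 0 CpG, and Alox5 lies on the minus strand (chr6:116461179-116461428) and has 5.
Tmem40: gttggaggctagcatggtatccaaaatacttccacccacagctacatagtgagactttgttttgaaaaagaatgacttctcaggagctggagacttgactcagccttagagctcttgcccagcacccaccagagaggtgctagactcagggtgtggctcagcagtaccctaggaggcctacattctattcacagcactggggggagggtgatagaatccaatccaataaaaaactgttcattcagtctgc
Alox5: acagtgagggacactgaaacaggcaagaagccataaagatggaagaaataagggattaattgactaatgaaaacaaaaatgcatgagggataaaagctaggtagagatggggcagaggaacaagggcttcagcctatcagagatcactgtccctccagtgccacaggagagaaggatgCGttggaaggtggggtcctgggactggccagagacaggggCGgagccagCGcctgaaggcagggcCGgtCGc

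From 130 to 150 Mb, the median was 0.31 over the 27 genes from Magohb to Rerg (starts from 131.3 to 137.1 Mb), with 10 called higher and 2 lower. The other 49, from Eps8 to Bicd1 (137.5 to 149.4 Mb), had one of 0.06, with 14 called higher and 12 lower. This split was also chosen with the values in view and carries no test. Shares over all genes tested were 21.7% higher and 21.8% lower. In the whole interval 46 of 76 genes had a positive value. With members of a mean of at least 50 counts only, the median of the interval was 0.06.

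Bhlhe41 (chr6:145858243-145865420), the paralog of Bhlhe40 and like it a repressor in the circadian clock, was the lowest gene of the third interval and the only one below the cutoffs of the study. It had 121 and 113 counts in WT and 34 and 34 counts in G3 Terc-/- libraries, a log2 fold change of -1.65 (SE 0.22). The genotypes were far apart, as they were for Bhlhe40 in the second interval. Arntl2, an activator of the same clock family, had 68 and 71 counts in WT and 129 and 86 counts in G3 Terc-/- libraries (0.74, SE 0.20). It lay on the other side of WT and lost its call without G3 Terc-/- replicate 1 (0.58).

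Sinhcaf (chr6:148921057-148946470), a subunit of the SIN3 histone deacetylase complex, had 372 and 381 CPM in WT and 231 and 246 CPM in G3 Terc-/- libraries (-0.66, SE 0.05). Ldhb, which interconverts lactate and pyruvate, had 152 and 142 CPM in WT and 99.7 and 89.1 CPM in G3 Terc-/- libraries (-0.64, SE 0.06). Etnk1, the first enzyme of phosphatidylethanolamine synthesis from ethanolamine, had 369 and 408 CPM in WT and 262 and 277 CPM in G3 Terc-/- libraries (-0.53, SE 0.05). The genotypes did not overlap for any of the 3. Tmtc1, which adds mannose to cadherins, had 12.7 and 13.9 CPM in WT and 9.88 and 10.1 CPM in G3 Terc-/- libraries (-0.42, SE 0.12), and it was not called without WT replicate 2 (-0.35) or by DESeq2. Magohb, of the exon junction complex, had 307 and 297 counts in WT and 204 and 227 counts in G3 Terc-/- libraries (-0.36, SE 0.13). Its value was -0.14 without G3 Terc-/- replicate 1 and -0.32 without WT replicate 1, not called in either case, and -0.57 without G3 Terc-/- replicate 2. Resf1, a factor that silences retroelements, had 5236 and 5420 counts in WT and 4597 and 4162 counts in G3 Terc-/- libraries (-0.15, SE 0.05), and its call was lost without WT replicate 1 (-0.17), WT replicate 2 (-0.14) or G3 Terc-/- replicate 1 (-0.08).

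Fam234b (chr6:135196880-135236242), a transmembrane protein, had 11.5 and 8.79 CPM in WT and 20.4 and 19.3 CPM in G3 Terc-/- libraries (0.97, SE 0.11). Emp1 (chr6:135362550-135383173), a membrane protein that fibroblasts express strongly, had 31.8 and 24.4 CPM in WT and 54.3 and 46.6 CPM in G3 Terc-/- libraries (0.85, SE 0.09). Gprc5a, an orphan receptor that retinoic acid induces, had 17.3 and 13.2 CPM in WT and 24.4 and 25.3 CPM in G3 Terc-/- libraries (0.71, SE 0.10). No groups overlapped. WT replicate 1 lay above WT replicate 2 in all 3 genes, and G3 Terc-/- replicate 1 above G3 Terc-/- replicate 2 in Fam234b and Emp1, an order that the summed feeder markers also had in both genotypes. The part that feeder cells have in these values was not tested. Lockd, a lncRNA beside Cdkn1b, had 37 and 52 counts in WT and 79 and 70 counts in G3 Terc-/- libraries (0.87, SE 0.24) and was not called without WT replicate 1 (0.65) or by DESeq2. Arhgdib, an inhibitor of small GTPases in blood cells, had 88 and 63 counts in WT and 133 and 87 counts in G3 Terc-/- libraries (0.66, SE 0.20), with the call lost without WT replicate 2 (0.43) or G3 Terc-/- replicate 1 (0.47).

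The genes above the cutoffs of the study in the third interval were all of low count and were named after their values were seen. Rerg, a RAS-like GTPase, had 16 and 14 counts in WT and 41 and 34 counts in G3 Terc-/- libraries (1.44, SE 0.35). BC049715 (1.30, SE 0.45) and Mansc4 (1.26, SE 0.51) had at most 23 counts in any library. Per kb, the most abundant members were Rps4l, a transcribed pseudogene of a ribosomal protein, at 347 CPM per kb in WT and 344 CPM per kb in G3 Terc-/- cells (log2 fold change -0.01, SE 0.05), Ybx3, an RNA-binding cold shock protein, at 139 and 159 CPM per kb (0.20, SE 0.05), and Strap, of the SMN complex, at 85.9 and 81.6 CPM per kb (-0.07, SE 0.05). Rps4l shares its sequence with the functional gene elsewhere and its level is uncertain, and Ybx3 lost its call without WT replicate 1 (0.18).

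Upstream bases of the lowest and, by the same rule, highest gene of the third interval are shown with the E-box that clock factors bind. Bhlhe41 lies on the minus strand (chr6:145865421-145865670) and has 31 CpG, and Lockd lies on the plus strand (chr6:134928842-134929091) and has 10. The E-box letters CACGTG, which read the same on both strands, are found in the Bhlhe41 stretch with their first base 153 bases before the start. In the 250 upstream bases of 27025 genes with an entry, 6.04% hold these letters, as do 8.4% of the 11585 tested genes with an entry and 14 of 220 members (6.36%), which is a description of the letters only. Bhlhe40 is not shown.
Bhlhe41: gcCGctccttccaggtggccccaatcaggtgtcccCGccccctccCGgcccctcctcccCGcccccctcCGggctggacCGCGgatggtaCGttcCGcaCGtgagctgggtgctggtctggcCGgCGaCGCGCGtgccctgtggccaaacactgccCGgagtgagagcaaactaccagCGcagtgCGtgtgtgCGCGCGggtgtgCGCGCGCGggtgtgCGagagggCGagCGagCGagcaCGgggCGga
Lockd: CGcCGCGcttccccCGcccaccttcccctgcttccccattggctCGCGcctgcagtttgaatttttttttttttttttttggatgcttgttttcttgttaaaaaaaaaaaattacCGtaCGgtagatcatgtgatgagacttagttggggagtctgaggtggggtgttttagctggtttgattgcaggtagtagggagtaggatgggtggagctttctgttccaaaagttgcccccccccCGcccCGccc

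RefSeq entries were matched for 220 of the 268 members. Their 250 upstream bases held a median of 15 CpG, as did those of 11585 tested genes with an entry. By call, the medians were 14 for higher and 15 for lower genes in the first interval (23 and 23 genes) and 15 for both in the second (23 and 15 genes). In the third they were 11 for 19 higher genes and 19.5 for 12 lower genes. The interquartile ranges of the third overlapped only narrowly, from 4 to 16 and from 14 to 31 CpG. Its 27 uncalled genes with an entry had a median of 16 and a range from 9.5 to 22.5. Over all tested genes with an entry the range was from 9 to 22. The difference by call was not tested.

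**Figure D3:**
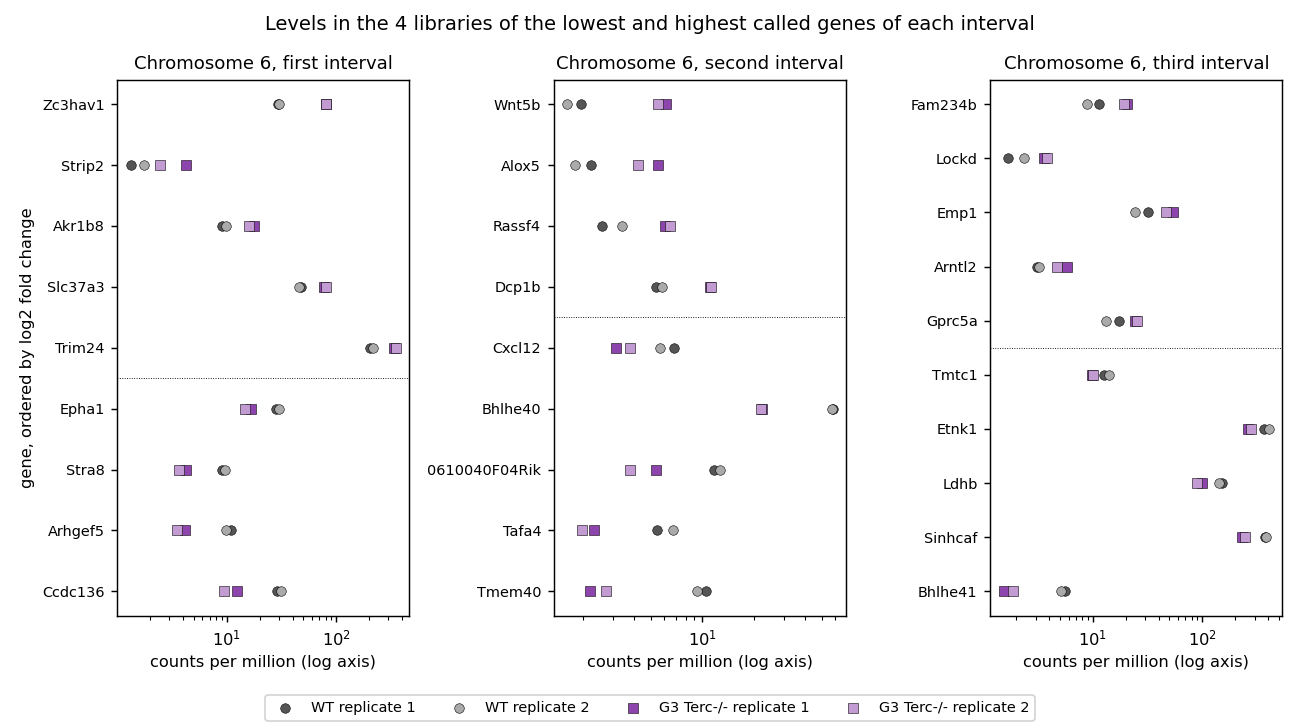
Points give the CPM of each library (x axis, log scale) for genes among the 5 highest and 5 lowest called of each interval with a mean of at least 50 counts (y axis, ordered by log2 fold change), with WT as circles and G3 Terc-/- as squares. The genotypes do not overlap for any of these 28 genes, which follows largely from picking them by call and fold change in these same libraries. Members without a call, such as Rbm28 and Tnpo3, also have groups that do not overlap. The share over all tested genes was not counted. Pairs of libraries nearly coincide for Zc3hav1 and Bhlhe40.

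Of 8 members with a role in the RAS to ERK cascade, 1 was called higher (Rassf4, 1.06), 3 lower (Braf and Rassf8 among them) and 4 were not called, and the median log2 fold change was -0.05. Over all tested genes, 21.7% were called higher, 21.8% lower and 56.5% were not called. Rassf8, a RAS association domain protein, had 158 and 157 counts in WT and 119 and 102 counts in G3 Terc-/- libraries (-0.39, SE 0.16), and its call was lost when any of the 4 libraries was left out, with values from -0.41 to -0.35. Ret, the receptor for GDNF ligands, had 52 and 51 counts in WT and 58 and 51 counts in G3 Terc-/- libraries (0.21, SE 0.24), Dusp16, a MAP kinase phosphatase, had a log2 fold change of -0.03 (SE 0.07), and Eps8, a substrate of growth factor receptors that regulates actin, one of -0.07 (SE 0.08). In a list of 31 genes of the pathway across the genome, from receptors to feedback inhibitors, 4 were called higher, 13 lower and 14 were not called, with a median of -0.12. In that list the RAS genes Hras and Nras had log2 fold changes of 0.08 and 0.16, of which that of Nras was called, and Araf, the RAF kinase on the X chromosome, one of 0.21.

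Of 9 tested genes of genome maintenance, 3 were called higher (Hipk2, Mbd4 and Recql), 1 lower (Rad18) and 5 were not called, with a median of 0.07, where 21.7% of all tested genes were called higher and 21.8% lower. Rad18 (chr6:112619851-112696691), the ubiquitin ligase that marks PCNA for damage bypass, had 1022 and 1093 counts in WT and 699 and 562 counts in G3 Terc-/- libraries, or 46.8 and 49.3 against 31.5 and 30.8 CPM (-0.62, SE 0.07). Its genotypes did not overlap. Recql, a DNA helicase, had 34.2 and 35.1 CPM in WT and 45.4 and 40.1 CPM in G3 Terc-/- libraries (0.31, SE 0.08). Mbd4, a glycosylase for mismatched thymine, had 24.9 and 25.6 CPM in WT and 29.2 and 30.9 CPM in G3 Terc-/- libraries (0.25, SE 0.08). The call of Mbd4 was lost by DESeq2 and without WT replicate 1 (0.23), WT replicate 2 (0.27) or G3 Terc-/- replicate 2 (0.21).

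Shq1 (chr6:100571811-100671183), the assembly factor for H/ACA particles, had 675 and 734 counts in WT and 680 and 551 counts in G3 Terc-/- libraries, or 30.9 and 33.1 against 30.7 and 30.2 CPM (-0.07, SE 0.08). Fancd2, of the Fanconi anaemia pathway of crosslink repair, had 113 and 112 CPM in WT and 105 and 101 CPM in G3 Terc-/- libraries (-0.13, SE 0.06) and was not called, though it was without G3 Terc-/- replicate 1 (-0.15). Ppp4r2, a subunit of a phosphatase that acts on damage signals, had 111 and 114 CPM in WT and 101 and 109 CPM in G3 Terc-/- libraries (-0.10, SE 0.06) and was called without G3 Terc-/- replicate 2 (-0.15). These differences were small, and for Shq1 the closest libraries of the 2 genotypes stood at 30.9 and 30.7 CPM. Ogg1, the glycosylase for oxidised guanine, had 342 and 312 counts in WT and 369 and 263 counts in G3 Terc-/- libraries (0.07, SE 0.11), with overlapping groups and with -0.0075 and -0.04 without WT replicate 2 and G3 Terc-/- replicate 1. Setmar, a histone methyltransferase placed in the same list, had 83 and 97 counts in WT and 132 and 89 counts in G3 Terc-/- libraries (0.41, SE 0.19). It was called without G3 Terc-/- replicate 2 (0.54) and with a replicate block (0.41). A repair role of the mouse gene was not tested.

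Of 17 metabolic enzymes, 10 were called higher, 3 lower and 4 were not called, with a median log2 fold change of 0.21, beside 21.7% higher and 21.8% lower over all tested genes. The higher ones include Akr1b3, Akr1b8 and Akr1b10, similar neighbours between which the split of reads is uncertain. Of 24 transcription factors and chromatin proteins, 10 were called higher, 6 lower and 8 were not called (0.15). The 6 lower ones were Bhlhe40, Bhlhe41, Foxp1, Nrf1, Rybp and Setd5. Of 22 genes of RNA processing and translation, 3 were called higher (Zc3hav1, Dcp1b and Luc7l2), 7 lower and 12 were not called (-0.08). The difference between these shares was not tested.

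Transport genes had 8 higher, 5 lower and 5 genes not called of 18, with a median of 0.09. For these roles, too, the shares over all tested genes were 21.7% higher and 21.8% lower. Of 21 tested receptors and ligands, 5 were called higher (Emp1, Gprc5a, Il17rc, Kcp and Wnt5b), 4 lower (Cxcl12, Epha1, Podxl and Smo) and 12 were not called (0.08). Ubiquitin ligases and adaptors had 2 higher, 2 lower and 8 not called of 12 (-0.06), and genes of the actin cytoskeleton and adhesion 3, 3 and 7 of 13 (0.12). Of 8 tested members that fibroblasts express strongly, 2 were called higher (Calu and Emp1), 2 lower (Cxcl12 and Flnc) and 4 were not called (0.11). The summed level of the feeder markers was higher in both G3 Terc-/- libraries, mostly through Fn1 and Vim. The part of feeder cells in these members was not tested.

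**Figure D4:**
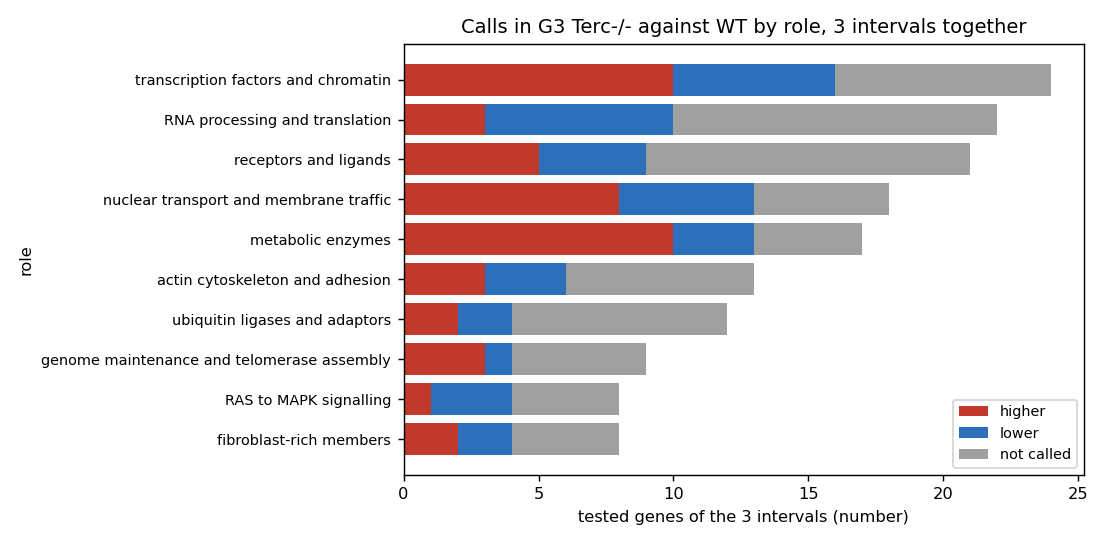
Bars give the number of tested members of the 3 intervals (x axis) in each role (y axis) that were called higher (red), called lower (blue) or not called (grey) in G3 Terc-/- against WT cells. Metabolic enzymes show 10 higher and 3 lower of 17, and genes of RNA processing and translation 3 higher and 7 lower of 22. The shares over all tested genes were 21.7% higher and 21.8% lower. The higher enzymes include the similar neighbours Akr1b3, Akr1b8 and Akr1b10.

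At the limits, the values ran on from the blocks in some places and broke off in others. Below 25 Mb, Ndufa5 and Wasl had log2 fold changes of -0.83 and -1.03, and inside, Pot1a, which is left out by name, had -1.18 and Grm8, a glutamate receptor with at most 22 counts, 0.95 (SE 0.47, not called). Across 45 Mb, Arhgef5 inside had -1.43, and Cntnap2 and Cul1 outside had -1.20 and -1.13. Below 95 Mb, Slc25a26 and Lrig1 had 0.01 and 0.45, and inside, Kbtbd8 and Suclg2, a subunit of succinyl-CoA synthetase, had 0.07 and 0.22. At 120 Mb, Rad52, which is left out by name, and Wnk1 had 0.54 and 0.78 inside, and B4galnt3 and Ccdc77 had 0.25 and 0.54 outside. At 130 Mb, 1700101I11Rik and Gabarapl1 outside had 0.01 and -0.16, and Magohb and Styk1, a kinase-like receptor with at most 15 counts, had -0.36 and 0.93 inside. No tested gene lies beyond Resf1 and Bicd1 (-0.15 and -0.16) toward 150 Mb.

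The intervals list more genes than were counted here. Of 203, 153 and 182 listed genes, 107, 52 and 106 had a mean below 10 counts, and 57, 22 and 66 of those had no count in any library. Large silent families were among them, since none of 32 bitter taste receptor genes (Tas2r), 28 odorant receptor genes (Olfr) and 10 Klra receptor genes reached the mean. Just below it were Clec2l and Apold1, with means of 9.75 counts, and just above it Spx with 10, Cntn3 with 10.25 and Slc6a11 with 10.5. Cntn3 alone could not be tested, with 6 and 9 counts in WT and 18 and 8 counts in G3 Terc-/- libraries. Of the members, 89, 97 and 71 are protein-coding, and the median of their mean counts was 452, 422 and 422. Annotated spans of 24, 31 and 20 members overlap another listed gene, so that their counts are uncertain.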

How the data were processed

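Poly(A) RNA was sequenced from 2 WT and 2 G3 Terc-/- ESC libraries. The authors deposited raw counts per gene under NCBI gene identifiers. Per the submitters' processing notes, Trim Galore, STAR, featureCounts and mm10 were used. The strand setting of the counting is not given in the sources used here. Symbols and positions came from RefSeq GRCm38.p6, which matched 24061 of 24116 identifiers, and exon lengths from GENCODE M21. The transposable element table was not used.

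Genes were filtered by filterByExpr, leaving 14896, scaled by TMM and tested with edgeR 4.0.16 (quasi-likelihood, R 4.3.3), after a test on simulated data. CPM are counts scaled to the TMM-adjusted library size. Groups that do not overlap are a description of 2 against 2 libraries, and their share over all tested genes was not counted. Genes named were, per interval, the 5 highest and 5 lowest called with a mean of at least 50 counts, the 3 most abundant per kb, the 2 next to each limit, all of the RAS and genome maintenance lists and up to 3 of the other lists. A few genes that this rule names are not reported here. Members and lists were chosen with earlier results of these data known. Alternatives were DESeq2 1.42.0, other scaling, no filter, a stricter mean, shifted limits, a replicate block and leaving out each library. Over all tested genes, deviations of same-numbered libraries from their group means had a correlation of 0.0617 between genotypes. This value does not show whether some genes share an order by replicate number. The summed feeder markers had replicate 1 above replicate 2 in both genotypes. Totals of 18047995 to 22520017 counts set the precision, and the fitted SE covers the spread between 2 libraries per genotype.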

Additional observations from a re-analysis of the deposited data

How the results depend on the processing

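Of 180 repeats of the 15 interval results, 154 moved little, and of 82 named genes 56 kept direction and call in every repeat, 15 lost a call, 6 gained one and 5 changed sign at least once. The cause of the shifts below was not tested. With 1 library left out, where the lone library is assumed to vary like the other genotype, the median of the first interval ran from -0.071 to -0.010, that of the second from 0.031 to 0.058 and that of the third from 0.076 to 0.12. In the same repeats, 14 to 21 genes of the second interval were called lower (14 without WT replicate 2), and in the third 7 to 13 were lower, 2 to 7 passed the study cutoffs upward (7 without WT replicate 1) and 1 to 2 downward. DESeq2 called 12 lower in the second interval, and 14 higher, 8 lower and 1 above the cutoffs in the third. Limits 2 Mb further in gave 3 genes below the cutoffs in the first interval, a median of -0.0061 in the second, and a median of 0.15 with 8 lower in the third. Means of at least 50 counts gave a median of 0.061 and 0 genes above the cutoffs in the third. Without overlapping genes, an alternative chosen after seeing the data, the second interval had 2 genes above and 3 below the cutoffs and the third 9 lower. The replicate block gave 25 higher and 27 lower in the first interval, 31 and 24 in the second and 24 and 15 in the third, and its medians were -0.03, 0.06 and 0.12. It moved no interval count by more than 1.5 times and changed the calls of Fancd2, Mtpn, Brk1, Rpl32 and Setmar. The genes that changed sign, in each case when 1 library was left out, were 1700101I11Rik (from -0.015 to 0.052), Dusp16 (from -0.055 to 0.0028), Ogg1 (from -0.043 to 0.17), Rps4l (from -0.061 to 0.035) and Slc25a26 (from -0.14 to 0.19), none of which was called.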
